A study of Mus musculus with 24 samples.

Results

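The 10 genes described here encode elastin and proteins of the microfibrils on which it is laid down: Eln, Fbn1, Fbn2, Mfap4, Mfap5, Fbln5, Efemp2, Efemp1, Fbln1 and Fbln2. They were taken by gene name from the annotation of an expression array. Of the 55681 probes on the array 14 carried these names, and 13 of them were bright enough to be tested, all but the dimmer probe of Fbn2. The brightest probe stood for a gene, so that all 10 genes were among the 23503 tested.

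Elastic fibres let the aorta stretch and recoil. Smooth muscle cells and fibroblasts secrete tropoelastin, the monomer that Eln encodes, onto microfibrils built from the fibrillins Fbn1 and Fbn2. Fibulins such as Fbln5 and Efemp2 (fibulin 4) bring tropoelastin and the crosslinking enzyme lysyl oxidase together on that scaffold, and mutations of FBN1 in people cause Marfan syndrome, in which the aorta can dissect.

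RNA from the aorta of C57BL/6 mice was hybridised to 24 one-colour arrays, 3 in each of 8 groups, and the series calls the 3 biological replicates. The IL-17 knockout groups received salt plus infusion, infusion, salt alone or vehicle, and so did the wild-type groups. Salt was 1% NaCl in the drinking water before and during 3 days of infusion. The infusion held angiotensin II and β-aminopropionitrile (BAPN), which inhibits lysyl oxidases, and the pair is used to bring on aortic dissection in mice. All mice ate normal chow, and groups without BAPN and angiotensin II received vehicle or are labelled NaCl alone. Age and sex were not given in the sources used here, nor which IL-17 gene was deleted or where.

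Probes for Il17a and Il17f, which encode the best known members of the IL-17 cytokine family, were well above background on 0 of 24 arrays, so they check nothing about genotype. The 7 smooth muscle markers examined were measured in every group, with a summed signal of 1652.2 to 1960.9 times the array's 75th percentile in knockout vehicle and 2194.8 to 2857.4 times in wild-type vehicle aortas. No slide held both genotypes, and the genotypes were scanned apart. The 75th percentile by which each array was scaled lay between 383 and 772 on knockout and between 269.6 and 460 on wild-type arrays. Slide 1 held knockout vehicle, salt and infusion arrays 1 and 2, and slide 2 held knockout infusion array 3 and the 3 knockout salt plus infusion arrays. Slide 3 held wild-type vehicle, salt and salt plus infusion arrays 1 and 2, and slide 4 held the 3 wild-type infusion arrays and salt plus infusion array 3. In whole aorta, fewer cells of a type and less RNA per cell cannot be told apart. With 3 arrays a group, it is their number that sets how precise a value can be.

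Signals are given as log2 of the processed signal minus the array's 75th percentile, on which 0 is that percentile. Changes are differences of group means on this scale, and a gene was called where its p from limma, adjusted by Benjamini-Hochberg over 23503 genes, was under 0.05. A log2 level describes 1 probe and was not compared between genes. Apart from Fbn2, each gene's probe was well above background on 24 of 24 arrays, and none was saturated.

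The infusion moved the genes of this group in both directions. In knockout aortas on plain water it raised 5 of 10 (Eln, Fbn1, Fbln2, Mfap5 and Fbn2) and lowered 1 (Fbln1), against 14.3% of all genes higher and 16.4% lower. In wild-type aortas on plain water it raised 3 of 10 (Eln, Fbn1 and Fbln2) and lowered 2 (Fbln1 and Efemp1), against 12.2% and 13.7% of all genes. Where the mice also drank salt, infusion raised 5 of 10 in the knockout (Eln, Fbn1, Fbln2, Efemp2 and Fbn2) and lowered 2 (Fbln1 and Efemp1), against 13.3% and 12% (25.3% in all). It raised 5 of 10 in the wild type with salt (Eln, Fbn1, Fbln2, Mfap5 and Efemp2) and lowered 2 (Fbln1 and Efemp1), against 16.3% and 16.6% (32.9% in all). Salt plus infusion against vehicle raised 5 and lowered 2 in each genotype, against 12.7% and 13% in the knockout and 13.3% and 15.4% in the wild type. The knockout genes were those that infusion with salt moved, while in the wild type Mfap4 was called in place of Efemp2. The median log2 change of the 9 genes other than Fbn2 lay between 0.11 and 0.36 over these 6 comparisons, and that of all genes between −0.06 and −0.02. Comparisons that use the same vehicle or salt arrays are not independent of each other.

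**Figure D1:**
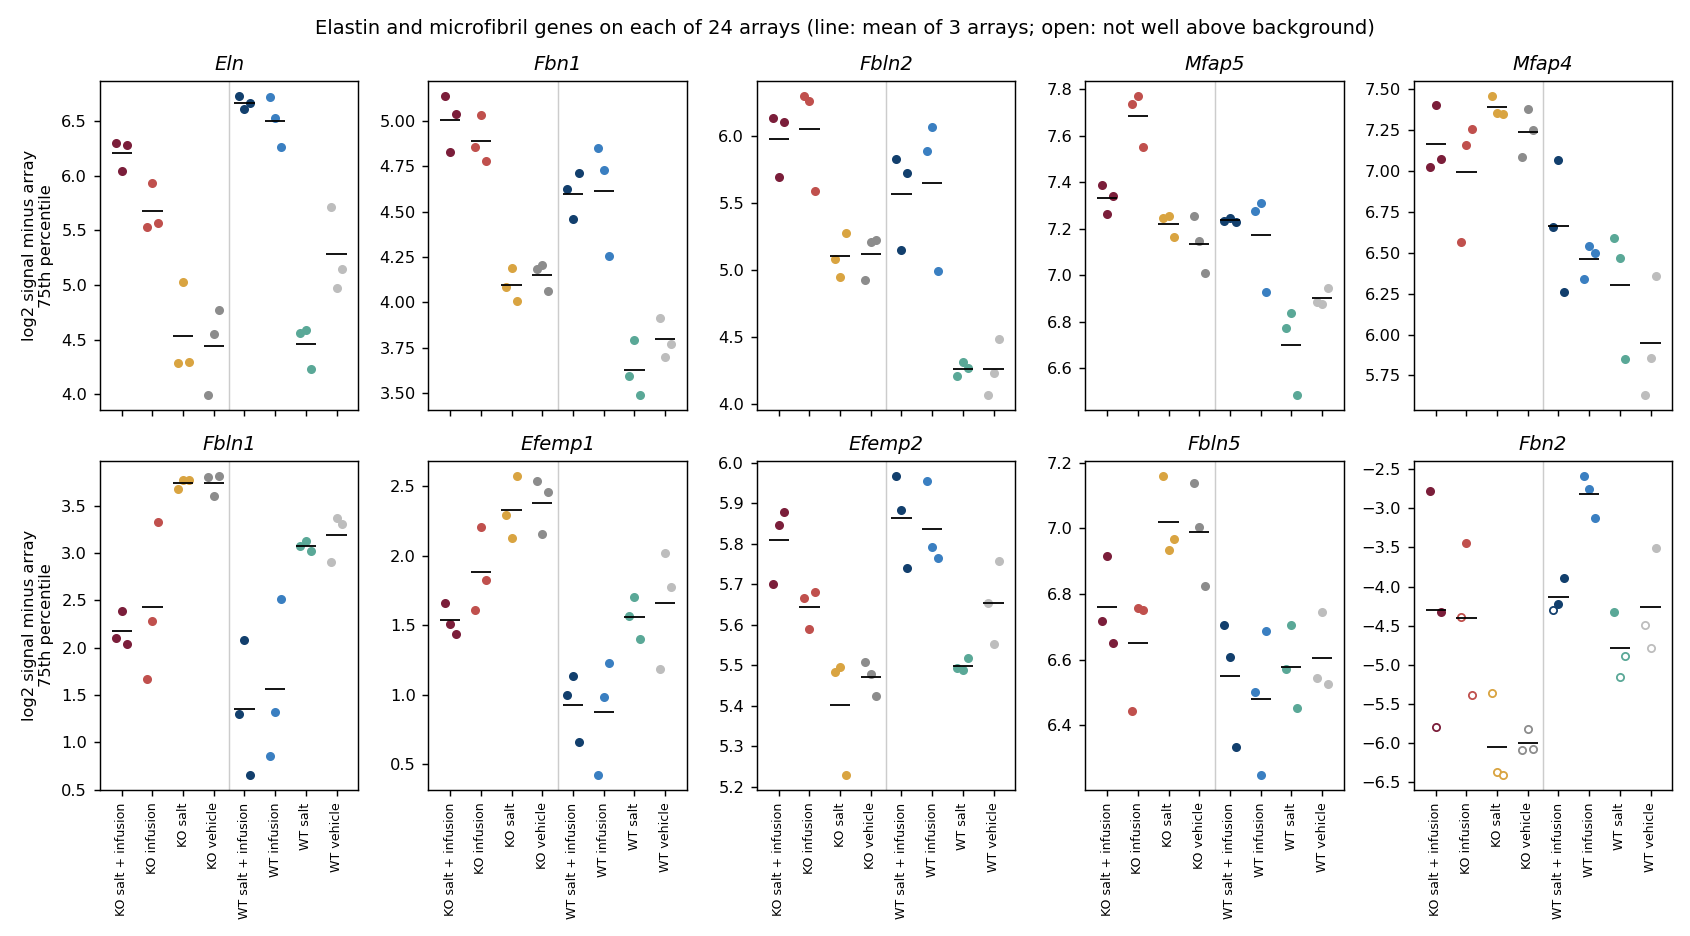
Log2 signal minus the array's 75th percentile (vertical axes, 1 scale for each gene) of 10 elastic fibre genes on each of 24 arrays, by group (horizontal axes); points are arrays, lines are means of 3 arrays, and open points were not well above background. Eln, Fbn1 and Fbln2 sit higher and Fbln1 lower on arrays with infusion than on arrays without it in both genotypes.

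Elastin itself, the core of the elastic fibre, was measured by a probe at chr5:135179129-135179188 (mm9). In knockout aortas, Eln read 6.29, 6.04 and 6.28 on salt plus infusion arrays, 5.53, 5.93 and 5.57 on infusion arrays, 4.28, 5.03 and 4.29 on salt arrays and 3.99, 4.56 and 4.78 on vehicle arrays. In wild-type aortas, it read 6.73, 6.61 and 6.66 on salt plus infusion arrays, 6.72, 6.53 and 6.26 on infusion arrays, 4.56, 4.59 and 4.24 on salt arrays and 5.72, 4.98 and 5.15 on vehicle arrays. In each genotype all 6 arrays with infusion lay above all 6 without it. On plain water Eln rose 2.36-fold in the knockout (log2 change 1.24, SE 0.23, adjusted p = 0.000806) and 2.33-fold in the wild type (log2 change 1.22, SE 0.23, adjusted p = 0.00116). With salt it rose 3.18-fold in the knockout (log2 change 1.67, SE 0.23, adjusted p = 8.17e-05) and 4.61-fold in the wild type (log2 change 2.20, SE 0.23, adjusted p = 1.7e-05). Salt plus infusion against vehicle gave a log2 change of 1.76 in the knockout (adjusted p = 5.04e-05) and 1.39 in the wild type (adjusted p = 0.000414).

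By group mean, Eln was highest with salt plus infusion in the wild type (6.67 ± 0.06, SD, n = 3), followed by wild-type infusion (6.50 ± 0.23), knockout salt plus infusion (6.20 ± 0.14) and knockout infusion (5.68 ± 0.22). Wild-type vehicle came next (5.28 ± 0.39), then knockout salt (4.53 ± 0.43), wild-type salt (4.46 ± 0.20) and knockout vehicle (4.44 ± 0.40). Of neighbours in this order, knockout salt plus infusion and knockout infusion did not overlap, and the arrays of each other neighbouring pair did.

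Of the fibrillins, Fbn1, the main one of adult tissue, rose in all 6 infusion comparisons (probe at chr2:125126727-125126786, mm9). In knockout aortas, Fbn1 read 5.14, 4.83 and 5.04 on salt plus infusion arrays, 4.86, 5.03 and 4.78 on infusion arrays, 4.08, 4.19 and 4.01 on salt arrays and 4.18, 4.21 and 4.06 on vehicle arrays. In wild-type aortas, Fbn1 read 4.62, 4.46 and 4.72 on salt plus infusion arrays, 4.85, 4.73 and 4.26 on infusion arrays, 3.60, 3.79 and 3.49 on salt arrays and 3.91, 3.70 and 3.77 on vehicle arrays. No array with infusion overlapped the arrays without it in its genotype. The rise on plain water was 1.67-fold in the knockout (log2 change 0.74, SE 0.14, adjusted p = 0.000984) and 1.76-fold in the wild type (log2 change 0.82, SE 0.14, adjusted p = 0.000644). With salt it was 1.88-fold in the knockout (log2 change 0.91, SE 0.14, adjusted p = 0.000227) and 1.96-fold in the wild type (log2 change 0.97, SE 0.14, adjusted p = 0.00013).

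Fbn2, the fibrillin made mostly before birth, was near the detection limit, and its brighter probe was well above background on 10 of 24 arrays. It entered the test only through the wild-type infusion group, where it was above background on all 3 arrays. In knockout aortas, Fbn2 read −2.78, −5.79 and −4.33 on salt plus infusion arrays, −4.39, −3.44 and −5.38 on infusion arrays, −5.37, −6.37 and −6.41 on salt arrays and −6.09, −5.83 and −6.08 on vehicle arrays. The probe was well above background there on 2 of 3 salt plus infusion arrays (1 and 3), 1 of 3 infusion arrays (array 2) and 0 of 6 others. In wild-type aortas, Fbn2 read −4.30, −4.22 and −3.89 on salt plus infusion arrays, −2.58, −2.75 and −3.13 on infusion arrays, −4.32, −5.15 and −4.89 on salt arrays and −4.49, −4.78 and −3.51 on vehicle arrays, well above background on 2, 3, 1 and 1 of 3 arrays. The knockout calls were those of infusion on plain water (adjusted p = 0.0382), infusion under salt (adjusted p = 0.0293) and salt plus infusion against vehicle (adjusted p = 0.0325). No fold is given, since knockout vehicle and salt were not well above background on any array and the groups with infusion on only some. The call on plain water was lost, at the adjusted p in parentheses, without knockout vehicle array 1 (0.0907), knockout vehicle array 2 (0.0684), knockout vehicle array 3 (0.089), knockout infusion array 1 (0.1) or knockout infusion array 2 (0.186). That under salt was lost without knockout salt array 2 (0.0908), knockout salt array 3 (0.0944), knockout salt plus infusion array 1 (0.189) or knockout salt plus infusion array 3 (0.0716), and that against vehicle without knockout vehicle array 1 (0.083), knockout vehicle array 2 (0.0615), knockout vehicle array 3 (0.0795), knockout salt plus infusion array 1 (0.208) or knockout salt plus infusion array 3 (0.0781). No wild-type infusion comparison was called, and none is read further, because the filter admitted the probe through wild-type infusion.

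The microfibril-associated proteins differed from each other. Mfap5 (MAGP-2) binds fibrillin microfibrils and is made by fibroblasts. In knockout aortas, Mfap5 read 7.39, 7.27 and 7.34 on salt plus infusion arrays, 7.74, 7.77 and 7.55 on infusion arrays, 7.25, 7.25 and 7.16 on salt arrays and 7.25, 7.15 and 7.01 on vehicle arrays. In wild-type aortas, Mfap5 read 7.23, 7.25 and 7.23 on salt plus infusion arrays, 7.28, 7.31 and 6.93 on infusion arrays, 6.77, 6.84 and 6.48 on salt arrays and 6.88, 6.88 and 6.95 on vehicle arrays. Its 3 knockout infusion arrays lay above the other 9 knockout arrays, and its wild-type salt plus infusion arrays above the wild-type salt and vehicle arrays. Mfap5 rose 1.47-fold with infusion on plain water in the knockout (log2 change 0.55, SE 0.11, adjusted p = 0.00172), and 1.45-fold with infusion under salt in the wild type (log2 change 0.54, SE 0.11, adjusted p = 0.00208). It was also called for salt plus infusion against vehicle in the wild type (log2 change 0.33, adjusted p = 0.0355), and lost on leaving out any of the 6 arrays, with adjusted p-values up to 0.0906. The change on plain water in the wild type was 0.27 (adjusted p = 0.0899) and that under salt in the knockout 0.11 (adjusted p = 0.507).

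Mfap4, which binds tropoelastin and fibrillin, was called in 1 of the 6 infusion comparisons. In knockout aortas, Mfap4 read 7.02, 7.40 and 7.07 on salt plus infusion arrays, 6.56, 7.16 and 7.25 on infusion arrays, 7.46, 7.35 and 7.35 on salt arrays and 7.08, 7.38 and 7.25 on vehicle arrays. In wild-type aortas, Mfap4 read 6.66, 7.07 and 6.26 on salt plus infusion arrays, 6.34, 6.54 and 6.50 on infusion arrays, 6.59, 6.47 and 5.85 on salt arrays and 5.63, 5.85 and 6.36 on vehicle arrays. Arrays with and without infusion overlapped in both genotypes. Salt plus infusion against vehicle in the wild type was called, with a log2 change of 0.71 (SE 0.23, adjusted p = 0.0277). The call was lost, at the log2 change and adjusted p in parentheses, without wild-type vehicle array 1 (0.55, 0.127), wild-type vehicle array 2 (0.67, 0.0771), wild-type salt plus infusion array 1 (0.71, 0.0654) or wild-type salt plus infusion array 2 (0.51, 0.115). In the knockout the change was −0.07 (adjusted p = 0.862).

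Among the fibulins that bind elastin and fibrillin, Fbln2 rose in all 6 infusion comparisons (probe at chr6:91222118-91222177, mm9). In knockout aortas, Fbln2 read 6.13, 5.70 and 6.10 on salt plus infusion arrays, 6.30, 6.26 and 5.59 on infusion arrays, 5.08, 4.95 and 5.28 on salt arrays and 4.93, 5.21 and 5.23 on vehicle arrays. In wild-type aortas, Fbln2 read 5.83, 5.16 and 5.72 on salt plus infusion arrays, 5.89, 6.07 and 4.99 on infusion arrays, 4.21, 4.32 and 4.27 on salt arrays and 4.07, 4.23 and 4.49 on vehicle arrays. All arrays with infusion lay above all arrays without it in their genotype, and infusion array 3 was the lowest infusion array in both genotypes. On plain water Fbln2 rose 1.9-fold in the knockout (log2 change 0.93, SE 0.25, adjusted p = 0.00888) and 2.62-fold in the wild type (log2 change 1.39, SE 0.25, adjusted p = 0.000855). Under salt it rose 1.83-fold in the knockout (log2 change 0.87, SE 0.25, adjusted p = 0.0156) and 2.47-fold in the wild type (log2 change 1.30, SE 0.25, adjusted p = 0.00098). The knockout call on plain water was lost without knockout infusion array 1 (0.80, 0.0543), with the log2 change and adjusted p in parentheses. That under salt was lost without knockout salt array 2 (0.80, 0.0562), knockout salt plus infusion array 1 (0.80, 0.0606) or knockout salt plus infusion array 3 (0.81, 0.0591), and that of salt plus infusion against vehicle (0.85, adjusted p = 0.0167) without knockout vehicle array 1 (0.76, 0.0686), knockout salt plus infusion array 1 (0.78, 0.0627) or knockout salt plus infusion array 3 (0.79, 0.0642).

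Efemp2, without which mice do not form elastic fibres, had small changes. In knockout aortas, Efemp2 read 5.70, 5.85 and 5.88 on salt plus infusion arrays, 5.67, 5.59 and 5.68 on infusion arrays, 5.48, 5.50 and 5.23 on salt arrays and 5.51, 5.48 and 5.42 on vehicle arrays. In wild-type aortas, Efemp2 read 5.97, 5.88 and 5.74 on salt plus infusion arrays, 5.95, 5.79 and 5.77 on infusion arrays, 5.49, 5.49 and 5.52 on salt arrays and 5.65, 5.55 and 5.76 on vehicle arrays. It rose 1.33-fold with infusion under salt in the knockout (log2 change 0.41, SE 0.10, adjusted p = 0.00599) and 1.29-fold in the wild type (log2 change 0.36, SE 0.10, adjusted p = 0.00913), with no overlap of the groups. Salt plus infusion against vehicle gave 0.34 in the knockout (adjusted p = 0.0163), a call lost without knockout vehicle array 3 (0.32, 0.0577), knockout salt plus infusion array 2 (0.32, 0.0506) or knockout salt plus infusion array 3 (0.30, 0.0713), with the log2 change and adjusted p in parentheses. On plain water its log2 change was 0.17 in the knockout (adjusted p = 0.194) and 0.18 in the wild type (adjusted p = 0.181).

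Fbln5, which mice need to assemble elastic fibres, was called in none of the 6 infusion comparisons. It ranged over 6.65 to 6.92 on salt plus infusion, 6.44 to 6.76 on infusion, 6.93 to 7.16 on salt and 6.83 to 7.14 on vehicle arrays in the knockout, and over 6.33 to 6.71, 6.25 to 6.69, 6.45 to 6.71 and 6.53 to 6.75 in the same wild-type groups. The change on plain water was −0.34 in the knockout (95% interval −0.63 to −0.05, adjusted p = 0.0744) and −0.13 in the wild type (95% interval −0.42 to 0.17, adjusted p = 0.546). A dimmer second probe nearer the end of the transcript gave −0.03 and 0.47 (adjusted p = 0.938 and 0.0984 over 33374 probes).

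**Figure D2:**
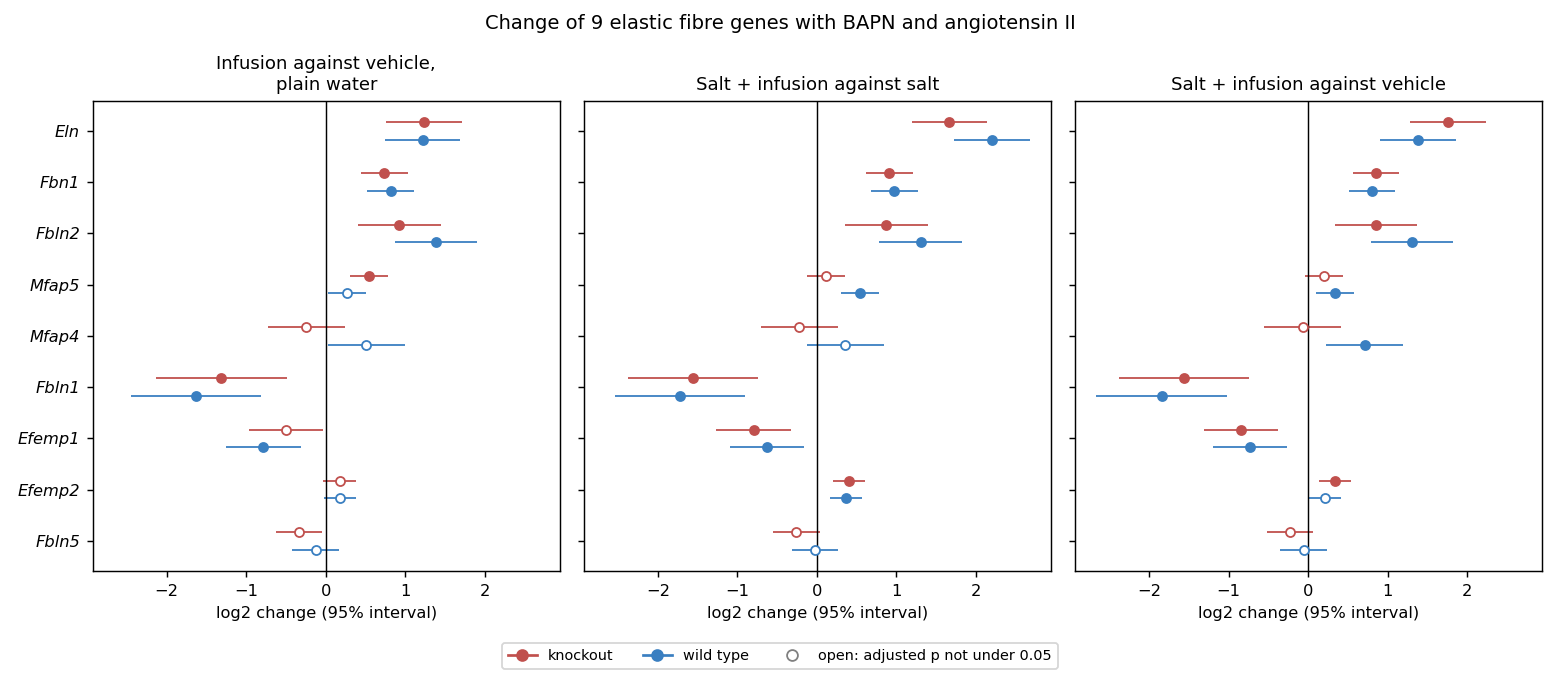
Log2 change of 9 genes, without the dim Fbn2 (horizontal axes, with 95% intervals from limma) in 3 comparisons with infusion, for knockout (red) and wild type (blue), n = 3 arrays a group; open points had an adjusted p not under 0.05. Eln, Fbn1 and Fbln2 lie right of 0 and Fbln1 left of 0 in all 6 sets of points.

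Fbln1, a fibulin that binds fibronectin, nidogen and elastin, showed the largest fall of the 10 genes in each of the 6 infusion comparisons. In knockout aortas, Fbln1 read 2.10, 2.39 and 2.04 on salt plus infusion arrays, 1.67, 2.28 and 3.32 on infusion arrays, 3.67, 3.77 and 3.77 on salt arrays and 3.80, 3.60 and 3.82 on vehicle arrays. In wild-type aortas, Fbln1 read 1.30, 2.08 and 0.66 on salt plus infusion arrays, 0.85, 1.32 and 2.52 on infusion arrays, 3.07, 3.13 and 3.02 on salt arrays and 2.91, 3.37 and 3.30 on vehicle arrays. Every array with infusion lay below every array without it in its genotype, and infusion array 3 was the highest infusion array in both. Fbln1 fell 2.49-fold with infusion on plain water in the knockout (log2 change −1.31, SE 0.39, adjusted p = 0.0166) and 3.1-fold in the wild type (log2 change −1.63, SE 0.39, adjusted p = 0.00595). Under salt it fell 2.95-fold in the knockout (log2 change −1.56, SE 0.39, adjusted p = 0.00783) and 3.31-fold in the wild type (log2 change −1.73, SE 0.39, adjusted p = 0.00332). Without knockout infusion array 1 or 2 the change on plain water was −0.94 (adjusted p = 0.12) or −1.24 (adjusted p = 0.0505).

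Fbln1 had 3 probes on the array, and all 3 fell with infusion. The 2 probes other than the brightest are shown because they lie at different places along the gene on the plus strand of mm9 chromosome 15, the first at chr15:85081927-85081986 on an Ensembl transcript model and the second at chr15:85115550-85115609 on the RefSeq transcript. Capitals mark the last triplet of the second probe, a stop triplet and the only one of its frame in the probe.
upstream probe: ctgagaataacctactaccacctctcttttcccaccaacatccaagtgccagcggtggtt
downstream probe: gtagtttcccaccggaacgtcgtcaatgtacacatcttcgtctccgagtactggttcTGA
The brightest probe, at chr15:85115998-85116057, lies past that triplet on the same transcript. Infusion on plain water in the knockout gave −1.03 for the upstream and −1.41 for the downstream probe (adjusted p = 0.0127 and 0.0138 over 33374 probes). In the wild type the upstream probe gave −1.18 and the downstream probe −1.70 (adjusted p = 0.0072 and 0.006). Salt plus infusion against vehicle gave −1.46 and −1.73 in the knockout and −1.23 and −1.92 in the wild type, in the same order of probes. Whether the probes differed in their change was not tested.

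**Figure D3:**
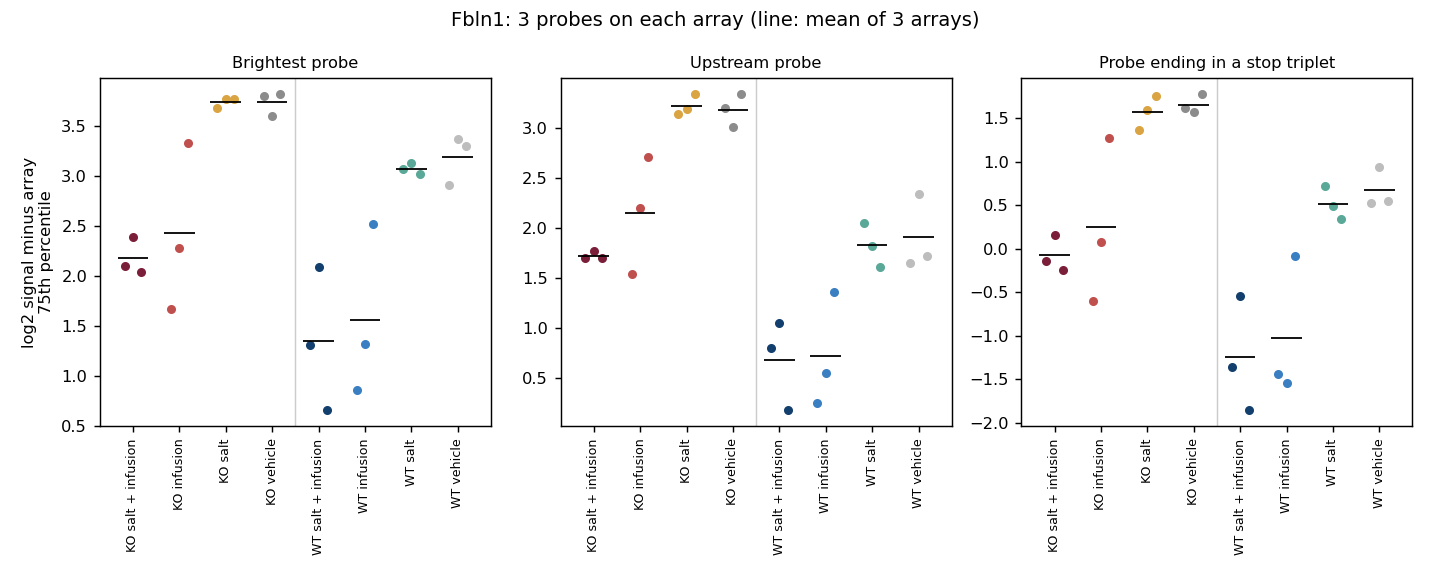
Log2 signal minus the array's 75th percentile (vertical axes, 1 scale for each probe) of the 3 Fbln1 probes on each array, by group (horizontal axes), with points for arrays and lines for means of 3 arrays. On all 3 probes the means of the groups with infusion lie below those of the groups without it in their genotype.

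Efemp1 (fibulin 3), a relative of Efemp2 found in many connective tissues, also fell. In knockout aortas, Efemp1 read 1.66, 1.51 and 1.43 on salt plus infusion arrays, 1.61, 2.21 and 1.82 on infusion arrays, 2.29, 2.13 and 2.58 on salt arrays and 2.54, 2.16 and 2.46 on vehicle arrays. In wild-type aortas, Efemp1 read 0.99, 1.13 and 0.66 on salt plus infusion arrays, 0.42, 0.98 and 1.23 on infusion arrays, 1.57, 1.70 and 1.40 on salt arrays and 1.19, 2.02 and 1.78 on vehicle arrays. Infusion and vehicle arrays overlapped in both genotypes, while salt plus infusion arrays lay below both the salt and the vehicle arrays. Efemp1 fell 1.72-fold with infusion on plain water in the wild type (log2 change −0.78, SE 0.22, adjusted p = 0.0157), and in the knockout the log2 change was −0.50 (adjusted p = 0.0982). Under salt it fell 1.74-fold in the knockout (log2 change −0.80, SE 0.22, adjusted p = 0.0148) and 1.54-fold in the wild type (log2 change −0.63, SE 0.22, adjusted p = 0.0383). The wild-type call on plain water was lost without wild-type vehicle array 2 (−0.61, 0.086) or wild-type infusion array 1 (−0.56, 0.0974), with the log2 change and adjusted p in parentheses. The wild-type call of salt plus infusion against vehicle was lost without vehicle array 2 (−0.55, 0.102) or vehicle array 3 (−0.67, 0.0638). That call was also lost without wild-type salt plus infusion array 3 (−0.60, 0.103). The wild-type call under salt was lost without wild-type salt array 1 (−0.62, 0.0855), wild-type salt array 2 (−0.56, 0.113), wild-type salt array 3 (−0.71, 0.0549), wild-type salt plus infusion array 1 (−0.66, 0.0669) or wild-type salt plus infusion array 3 (−0.49, 0.165), and the knockout call under salt without knockout salt array 3 (−0.67, 0.0671) or knockout salt plus infusion array 3 (−0.75, 0.0558).

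Slide and infusion were partly shared. In the wild type, vehicle and infusion on plain water lay on different slides, so a slide term rests on the salt plus infusion arrays, which lay on both. With slide as a fixed block 0 of the 5 wild-type calls on plain water held, and 261 genes were called in all. The log2 changes were then 1.23 for Eln (adjusted p = 0.172), 0.64 for Fbn1 (0.215), 1.16 for Fbln2 (0.186), −0.59 for Fbln1 (0.617) and −0.38 for Efemp1 (0.673). The change of Fbln1 was thus over 1.5 times smaller with the slide term, that of Efemp1 likewise, and that of Eln nearly as without it.

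Within slide 3, 2 wild-type salt plus infusion arrays could be set against vehicle and salt arrays of the same slide. Against salt, Eln rose by 2.21 on the log2 scale (adjusted p = 0.00116), Fbn1 by 0.92 (0.00343), Fbln2 by 1.23 (0.00633), Mfap5 by 0.54 (0.0187) and Efemp2 by 0.43 (0.0202). Fbln1 changed by −1.38 (0.00671), and the change of Efemp1, −0.49, did not pass (0.153). Against vehicle of the same slide Eln, Fbn1, Fbln2 and Fbln1 passed, while Mfap4 (0.92, adjusted p = 0.0552), Mfap5 (0.34, 0.0903) and Efemp1 (−0.60, 0.102) did not. Within slide 1, knockout infusion arrays 1 and 2 against vehicle kept all 6 calls, with Eln at 1.29 (adjusted p = 0.0147) and Fbln1 at −1.76 (0.000486). For knockout salt plus infusion the slide term rests on infusion array 3 alone against arrays 1 and 2. With it Fbln1 changed by −2.91 against vehicle (adjusted p = 0.00107) and Fbln2 by 1.55 (0.00971), each over 1.5 times the value without it, and Efemp1 (0.152) and Efemp2 (0.192) no longer passed.

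**Figure D4:**
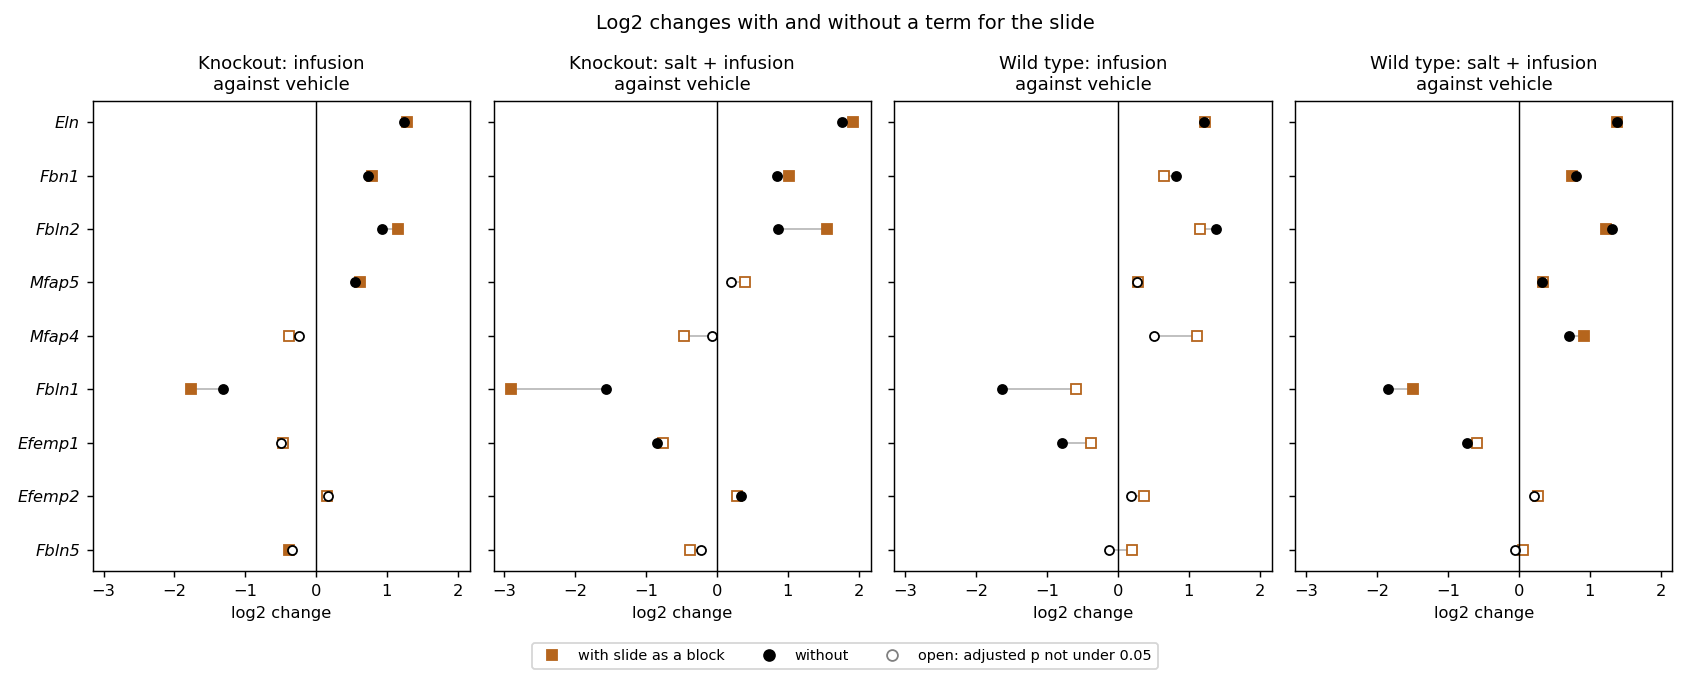
Log2 change (horizontal axes) of 9 genes, Fbn2 left out, without (black circles) and with (brown squares) slide as a fixed block, for infusion or salt plus infusion against vehicle in each genotype; open symbols had an adjusted p not under 0.05. All wild-type infusion symbols with the slide term are open, and the pair farthest apart is Fbln1 in knockout salt plus infusion.

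The 250 bases before the transcription start are printed for Fbn1 and Fbln2, which rose in all 6 infusion comparisons, for Fbln1, which fell in all 6, and for Efemp1, which fell in 5 (RefSeq, GRCm38.p6). Of the 10 genes, 6 matched the promoter table used. Fbn1 lies at chr2:125506439-125506688 on the minus strand, and the others on the plus strand, Fbln2 at chr6:91212514-91212763, Fbln1 at chr15:85205699-85205948 and Efemp1 at chr11:28852955-28853204. Capitals mark matches, on either strand, to GGGCGG (the GC box, bound by Sp1) or TGANTCA (the AP-1 motif, a palindrome).
Fbn1: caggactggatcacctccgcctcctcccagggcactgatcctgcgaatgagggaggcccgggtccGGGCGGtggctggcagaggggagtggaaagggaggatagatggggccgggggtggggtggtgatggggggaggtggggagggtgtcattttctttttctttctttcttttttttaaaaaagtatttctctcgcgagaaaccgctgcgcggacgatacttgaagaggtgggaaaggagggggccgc
Fbln2: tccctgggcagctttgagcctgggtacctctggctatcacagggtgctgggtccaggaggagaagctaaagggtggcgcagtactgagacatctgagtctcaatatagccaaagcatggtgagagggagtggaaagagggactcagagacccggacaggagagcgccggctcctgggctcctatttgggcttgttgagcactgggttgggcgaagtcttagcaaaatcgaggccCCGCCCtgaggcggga
Fbln1: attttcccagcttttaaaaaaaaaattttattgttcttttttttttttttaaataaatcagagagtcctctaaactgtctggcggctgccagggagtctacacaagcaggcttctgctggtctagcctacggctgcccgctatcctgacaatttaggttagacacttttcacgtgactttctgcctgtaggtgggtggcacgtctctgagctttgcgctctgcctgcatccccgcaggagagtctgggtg
Efemp1: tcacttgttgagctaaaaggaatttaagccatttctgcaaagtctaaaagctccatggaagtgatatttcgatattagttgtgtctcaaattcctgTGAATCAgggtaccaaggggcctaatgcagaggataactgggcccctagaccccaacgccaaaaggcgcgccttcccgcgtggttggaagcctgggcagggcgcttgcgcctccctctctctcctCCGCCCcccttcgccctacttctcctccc
A GC box was found before Fbn1, Fbln2 and Efemp1, and 32.7% of the 32851 promoters in the table hold one in a window of the same length. Of the 4, only the Efemp1 window held TGANTCA, which 6.75% of promoters hold. TATAAA, the core of the TATA box, was in none of the 4 and in 12.4% of promoters. The 4 genes were chosen for printing after their values were known, and a match describes letters and not binding.

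Salt alone called 0 of 10 genes in either genotype and 0% of all genes in the knockout and 0% in the wild type (limma). At an unadjusted p under 0.05 it counted 0 of 10 and 3.04% of all genes in the knockout, and 1 of 10 and 2.12% of all genes in the wild type. The 1 gene was Eln, whose 3 wild-type salt arrays all lay below the 3 vehicle arrays (log2 change −0.82, 95% interval −1.30 to −0.34, unadjusted p = 0.00199, adjusted p = 1). In the knockout the change of Eln was 0.09 (95% interval −0.38 to 0.57), with overlapping arrays. Salt on top of infusion called 0 of 10 genes in each genotype, against 0.00425% of all genes in the knockout (1 gene) and 0% in the wild type. Unadjusted, it counted 2 of 10 and 4.54% of all genes in the knockout, where Eln changed by 0.53 (unadjusted p = 0.0323) and Mfap5 by −0.36 (unadjusted p = 0.00569), both without overlap. For wild-type aortas it counted 1 of 10 and 5.76%, which was Fbn2, admitted by the filter through the infusion group of this comparison, so that nothing is read from it. Salt on top of infusion was largely shared with slide. Knockout salt plus infusion arrays lay on slide 2 and knockout infusion arrays 1 and 2 on slide 1. Wild-type infusion arrays lay on slide 4 and wild-type salt plus infusion arrays 1 and 2 on slide 3.

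The test of whether infusion acted differently with and without salt called 0 of 10 genes and 0% of all genes in the knockout, and 0 of 10 and 0% in the wild type. Unadjusted, 1 of 10 counted in each genotype, against 4.51% and 4.54% of all genes. The wild-type gene was Eln, whose infusion change was 0.98 larger under salt (95% interval 0.31 to 1.66, unadjusted p = 0.0066, adjusted p = 0.918). The knockout gene was Mfap5, with a difference of −0.44 (95% interval −0.78 to −0.10, unadjusted p = 0.0133, adjusted p = 1), and for Eln it was 0.43 (95% interval −0.24 to 1.11). Slide remains in these differences, since wild-type infusion lay on slide 4 and wild-type vehicle and salt on slide 3. Knockout salt plus infusion likewise lay on slide 2 and knockout vehicle and salt on slide 1.

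Knockout and wild-type aortas differed in level for several of these genes, but genotype and slide cannot be told apart. With vehicle 4 of 10 were higher in the knockout (Mfap4, Fbln2, Efemp1 and Fbln5) and 2 lower (Eln and Fbn2), against 14.4% and 22.7% of all genes. With infusion 2 were higher (Mfap5 and Efemp1) and 2 lower (Eln and Fbn2), against 18.8% and 27.3%. Nothing is read from that Fbn2 call, since the filter admitted the probe through wild-type infusion. With salt 6 were higher (Mfap4, Mfap5, Fbln2, Efemp1, Fbn1 and Fbln5) and 0 lower, against 15.8% and 23.5%. With salt plus infusion 2 were higher (Fbn1 and Efemp1) and 0 lower, against 10.5% and 18.1%. Over all genes, in either direction, 37.2%, 46.1%, 39.3% and 28.6% passed. The counts with infusion and with salt plus infusion thus lay below the share of all genes.

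Mfap4 was called higher in the knockout without infusion. Its differences with infusion (0.53) and with salt plus infusion (0.51) had the same direction and did not pass. It averaged 7.24 ± 0.15 in knockout and 5.95 ± 0.37 in wild-type vehicle aortas (SD, n = 3 each), a 2.44-fold difference (adjusted p = 0.0003) with no overlap. With salt it averaged 7.39 ± 0.06 in the knockout and 6.30 ± 0.40 in the wild type (adjusted p = 0.00131). With slide as a random block the vehicle and salt differences of Mfap4 were 1.57 (adjusted p = 0.0119) and 1.36 (adjusted p = 0.0281), and no other genotype call passed. Since no slide held both genotypes, this block cannot separate genotype from slide, and nothing is concluded from it. Eln was lower in the knockout with vehicle (4.44 ± 0.40, against 5.28 ± 0.39 in the wild type, adjusted p = 0.00754) and with infusion (5.68 ± 0.22, against 6.50 ± 0.23, adjusted p = 0.00669), and the difference with salt was 0.07 (adjusted p = 0.823). By the brightest probe of each gene, Efemp1 was the 1 gene called in all 4 comparisons, with knockout minus wild-type differences of 0.61 with salt plus infusion, 1.00 with infusion, 0.78 with salt and 0.72 with vehicle. Without knockout or wild-type vehicle array 1 the Eln difference with vehicle was −0.62 (adjusted p = 0.0537) or −0.62 (adjusted p = 0.0538). The Efemp1 difference with salt plus infusion was lost on leaving out any of the 6 arrays, with adjusted p-values up to 0.157, and with vehicle without knockout vehicle array 1 (0.65, 0.0627), knockout vehicle array 3 (0.69, 0.0513) or wild-type vehicle array 1 (0.49, 0.11). Fbn2 was called lower with vehicle (adjusted p = 0.0209), where it was well above background on 0 of 3 knockout and 1 of 3 wild-type arrays, and the call was lost without knockout vehicle array 1 (0.0555), knockout vehicle array 3 (0.0547) or wild-type vehicle array 3 (0.109), with the adjusted p in parentheses.

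Other genotype calls also depended on single arrays, named here with the log2 difference and adjusted p without each. The Fbln5 call with vehicle was lost without knockout vehicle array 1 (0.31, 0.144), knockout vehicle array 2 (0.38, 0.0873), wild-type vehicle array 1 (0.35, 0.106) or wild-type vehicle array 3 (0.34, 0.117). With salt, Fbln5 was lost without knockout salt array 1 (0.37, 0.0783) or wild-type salt array 3 (0.38, 0.0785), Fbn1 without knockout salt array 2 (0.42, 0.0502) or wild-type salt array 3 (0.40, 0.0672), Efemp1 without knockout salt array 3 (0.65, 0.0557) and Fbln2 without knockout salt array 3 (0.75, 0.0514). The Fbn1 call with salt plus infusion was lost without knockout salt plus infusion array 1 (0.34, 0.148), knockout salt plus infusion array 3 (0.39, 0.0932), wild-type salt plus infusion array 1 (0.42, 0.0737) or wild-type salt plus infusion array 2 (0.33, 0.143).

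By group mean, each probe of Fbln1 was higher in the knockout in every comparison, and the probes differed in which comparisons passed. The brightest probe was not called, with knockout minus wild-type differences of 0.83 with salt plus infusion, 0.86 with infusion, 0.66 with salt and 0.55 with vehicle (adjusted p = 0.12, 0.0794, 0.187 and 0.288). The upstream probe passed in all 4, with 1.05, 1.43, 1.40 and 1.28 in the same order (adjusted p = 0.0125, 0.000744, 0.00114 and 0.00232 over 33374 probes). The downstream probe gave 1.17, 1.27, 1.05 and 0.98, and passed in all but vehicle (adjusted p = 0.0374, 0.016, 0.0469 and 0.0643). Whether the probes differed in their genotype difference was not tested.

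Markers of cell types were also compared for knockout against wild type, with salt plus infusion, infusion, salt and vehicle in that order. Of all genes 10.5%, 18.8%, 15.8% and 14.4% were higher and 18.1%, 27.3%, 23.5% and 22.7% lower. Counts of 1 of 5, 1 of 6 or 2 of 7 are near these shares. Of 7 fibroblast markers 3, 4, 4 and 3 were higher and none lower, with median log2 differences of 0.75, 1.08, 0.54 and 0.69. Of 5 mesothelial markers 0, 5, 2 and 0 were higher and none lower (medians −0.07, 2.42, 1.55 and 0.83), and of 6 macrophage markers 1, 1, 2 and 3 were higher and none lower. Of 7 smooth muscle markers 3, 3, 2 and 2 were lower and none higher (medians −0.60, −0.62, −0.52 and −0.43), and of 5 neutrophil markers 1, 1, 2 and 1 were lower and none higher. Of 5 thymocyte markers 1, 1, 3 and 1 were lower and none higher, with several below background in some groups. Of 6 endothelial markers 0, 0, 0 and 2 were higher and none lower. Of 4 brown adipocyte markers 2, 1, 1 and 1 were higher and none lower. No white adipocyte or skeletal and heart muscle marker passed. The part of these cell types in the genotype differences of the elastic fibre genes was not tested.

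A difference of changes asks whether infusion acted differently in the knockout. Slide remains in it, since the wild-type change on plain water crosses from slide 3 to slide 4 while 2 of 3 knockout infusion arrays share slide 1 with vehicle. For infusion on plain water 0 of 10 genes and 0% of all genes were called, for infusion under salt 0 of 10 and 0.0596%, and for salt during infusion 0 of 10 and 0%. Unadjusted, 1 of 10 counted in each, against 6.52%, 9.01% and 6.98% of all genes. These were Mfap4 on plain water (knockout change minus wild-type change −0.76, 95% interval −1.44 to −0.07, adjusted p = 0.723) and Mfap5 in the other tests (−0.43, adjusted p = 0.446, and −0.42, adjusted p = 0.698). For Eln the difference was 0.02 on plain water (95% interval −0.66 to 0.69) and −0.54 under salt (95% interval −1.21 to 0.14). For Fbln1 it was 0.32 on plain water (95% interval −0.84 to 1.48) and 0.16 under salt (SE 0.55). With slide as a fixed block the Fbln1 difference on plain water was −1.17 (adjusted p = 0.284) and that of Mfap4 −1.49 (adjusted p = 0.115).

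Lists of genes that work with elastin and microfibrils were set beside the 10 genes in 4 comparisons with vehicle, in the order knockout salt plus infusion, knockout infusion, wild-type salt plus infusion and wild-type infusion. The share of all genes called was 25.7%, 30.6%, 28.7% and 25.9% in that order, and their median log2 change lay between −0.06 and −0.02. The wild-type infusion values rest on the slides described above. Of 5 lysyl oxidases, all measured, 4, 3, 3 and 3 were higher and none lower, with list medians of 1.25 to 1.45. Lox, which crosslinks tropoelastin and collagen, had log2 changes of 1.85, 1.89, 2.05 and 1.95, Loxl2 of 1.31, 1.25, 1.45 and 1.45 and Loxl4 of 1.89, 1.89, 1.60 and 1.37, with adjusted p-values between 0.000219 and 0.00512. Loxl3 passed in knockout salt plus infusion (0.57, adjusted p = 0.0052). BAPN acts on the enzymes these genes encode, and the arrays measured their RNA and not their activity.

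The ADAMTS and ADAMTS-like proteins that associate with microfibrils were lower where they passed. Of 10 listed, 9 were measured, of which 6, 7, 4 and 3 were lower and none higher, with list medians of −0.84 to −0.60. Adamtsl4, which promotes the laying down of fibrillin 1, fell by 1.09, 0.81, 0.96 and 1.09 on the log2 scale in the 4 comparisons. Adamtsl1 changed by −0.89, −0.80, −0.94 and −0.58 and passed in all but wild-type infusion (adjusted p = 0.0505). Adamts6 and Adamtsl3 passed in the knockout comparisons, with −0.84 and −1.08 for Adamts6 and −0.65 and −0.90 for Adamtsl3. In the wild type the adjusted p-values were 0.0575 and 0.16 for Adamts6 and 0.133 and 0.756 for Adamtsl3.

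Of 20 other genes listed as elastic fibre and microfibril components, 19 were measured. Of these, 1 was higher in each comparison and 8, 7, 5 and 5 were lower, with list medians of −0.29 to −0.07. The 1 that rose was Ltbp2, which binds fibrillin microfibrils, with log2 changes of 1.40, 0.96, 0.92 and 1.07. Ltbp4, which holds latent TGF-β and helps fibulin 5 assemble elastin, fell by 1.45, 1.20, 1.32 and 1.37 on the log2 scale. Dcn, the proteoglycan decorin also among the fibroblast markers below, fell by 0.85, 0.51, 0.94 and 0.66. Mfap1b, whose place in this list rests on its name, passed in both knockout comparisons, with a log2 change of −0.78 with infusion. Its wild-type changes were −0.31 (adjusted p = 0.222) and −0.18 (adjusted p = 0.517).

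Of 10 elastin-degrading proteases 7 were measured, and the counts were knockout salt plus infusion (3 higher, 1 lower), knockout infusion (1 and 1), wild-type salt plus infusion (1 and 1) and wild-type infusion (2 and 0). Of all genes 25.7%, 30.6%, 28.7% and 25.9% were called in that order, and a total of 2 of 7 is near these shares. Ctss, the macrophage cathepsin S, rose in each, by 1.57, 1.59, 1.47 and 1.69 on the log2 scale. Mmp9, the gelatinase B of neutrophils and macrophages, was well above background on no salt plus infusion array of either genotype. It was at least 1.73-fold lower in wild-type salt plus infusion than with vehicle (adjusted p = 0.00122). The 1 lower gene of each knockout comparison was also Mmp9. Nothing is read from it there, since the filter admitted the probe through knockout vehicle and salt. Ctsk, cathepsin K, passed in wild-type infusion (0.68, adjusted p = 0.0194) and Elane, neutrophil elastase, in knockout salt plus infusion (0.69, adjusted p = 0.0151).

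Of 8 integrin subunits 7 were measured, with counts of knockout salt plus infusion (0 higher, 1 lower), knockout infusion (2 and 2), wild-type salt plus infusion (2 and 1) and wild-type infusion (1 and 1). The shares of all genes called were 25.7%, 30.6%, 28.7% and 25.9% in that order, and a total of 1 or 2 of 7 is near or below them. Itga8, the α8 chain of smooth muscle, fell by 0.72, 0.97, 0.74 and 0.96 on the log2 scale. Itgb1 rose in wild-type salt plus infusion (0.79), wild-type infusion (0.60) and knockout infusion (0.45), and Itga5, its fibronectin-binding partner, in wild-type salt plus infusion (1.16) and knockout infusion (1.11). Itgb5 fell by 0.61 in knockout infusion. Of 7 TGF-β family ligands that microfibrils can hold, all measured, Tgfb1 rose in each comparison (log2 changes of 0.60, 0.84, 0.52 and 0.60) and Bmp7 fell by 1.60, 0.85, 1.43 and 1.65. Bmp4 rose in wild-type salt plus infusion (1.26) and wild-type infusion (0.73), and its knockout changes were 0.06 and 0.10. Bmp2 fell by 0.70 and 0.77 in the knockout.

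**Figure D5:**
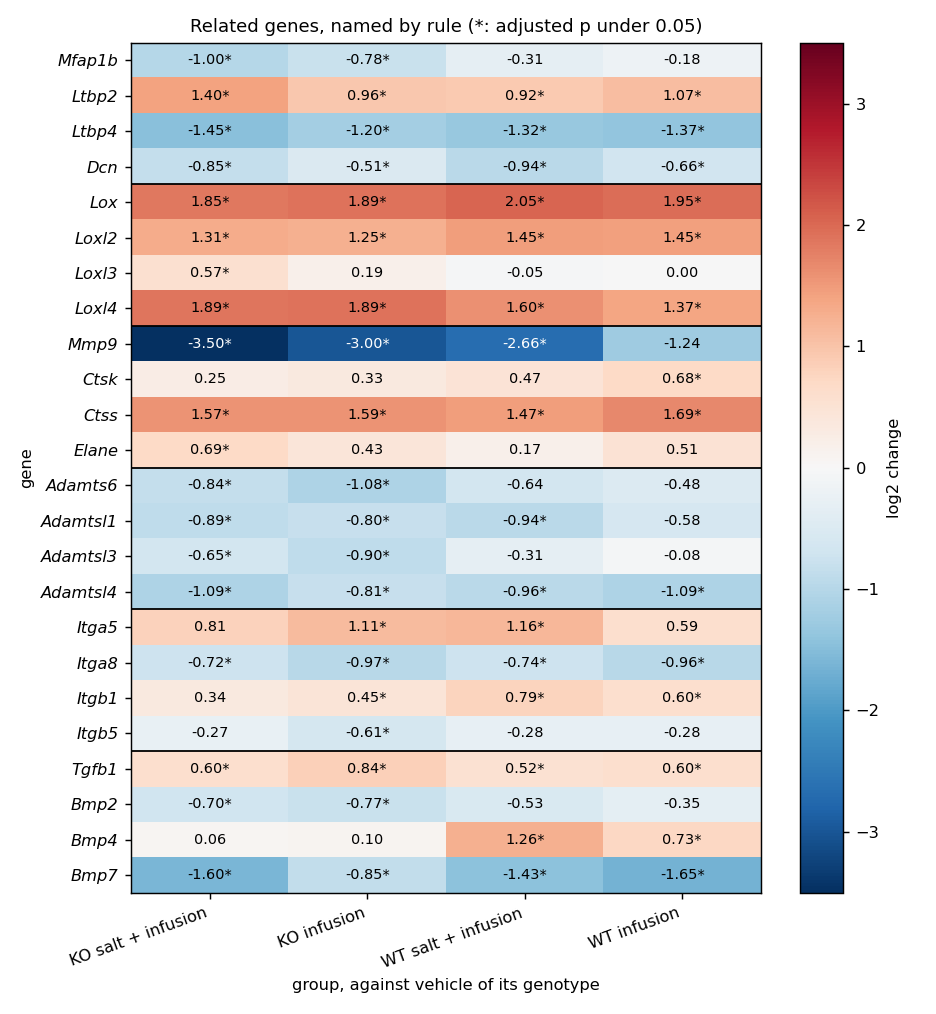
Log2 change (colour and number) of 24 related genes (vertical axis, lists separated by lines) in salt plus infusion and infusion against vehicle of the same genotype (horizontal axis); stars mark an adjusted p under 0.05. Lox, Loxl2, Loxl4, Ltbp2, Ctss and Tgfb1 are higher and Ltbp4, Dcn, Adamtsl4, Itga8 and Bmp7 lower in all 4 columns. The fitted Mmp9 values are no bounds. Those of the knockout are not read, since the filter admitted the probe through knockout vehicle and salt.

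Markers of other cells were counted in the same comparisons, in which 25.7%, 30.6%, 28.7% and 25.9% of all genes were called, in the order above. Of 7 fibroblast markers, all measured, counts were knockout salt plus infusion (0 higher, 5 lower), knockout infusion (0 and 4), wild-type salt plus infusion (0 and 5) and wild-type infusion (0 and 4), and none was below background on all 3 arrays of any group. Their summed signal, in multiples of the array's 75th percentile, was 315.7 to 402.9 with salt plus infusion, 411.3 to 528.4 with infusion and 584.6 to 701.6 with vehicle in the knockout. Wild-type sums were 260.8 to 352.3, 306.5 to 415.6 and 454.4 to 565.3 in the same groups. Of 6 macrophage markers, all measured, counts were knockout salt plus infusion (4 higher, 0 lower), knockout infusion (5 and 0), wild-type salt plus infusion (4 and 0) and wild-type infusion (6 and 0). Their summed signal was 96.2 to 101.4, 65.0 to 136.4 and 56.6 to 69.8 in those knockout groups and 49.5 to 75.1, 48.3 to 94.2 and 30.2 to 45.2 in the wild-type groups. For 7 smooth muscle markers the counts were knockout salt plus infusion (0 higher, 3 lower), knockout infusion (0 and 3), wild-type salt plus infusion (0 and 0) and wild-type infusion (0 and 2), with sums of 1183.2 to 1532.3 and 1291.6 to 1895.2 in knockout salt plus infusion and infusion and 2137.0 to 2492.5 and 1994.6 to 2313.1 in the wild type. Neutrophil markers (5 of 5 measured, 1 higher and 0 lower in each of the 4 comparisons) summed to 69.4 to 118.2 with infusion and 78.2 to 88.6 with vehicle in the knockout. The wild-type sums were 218.6 to 283.3 and 195.6 to 239.3. Among these neutrophil markers Cxcr2 was below background on all 3 arrays of 6 of the 8 groups, and S100a8 and S100a9 were in knockout salt. The sum in knockout salt was still 80.3 to 106.8, so it rests there on the remaining markers. None of these neutrophil sums is read as the level of all 5. Of 5 thymocyte markers 3, 1, 1 and 0 were lower and none higher, with several below background in some groups. Of 6 endothelial markers 0, 1, 2 and 1 were higher and 1, 0, 0 and 0 lower. Of 4 brown adipocyte markers 1 was higher in each comparison, and 1 was lower in knockout infusion. Of 4 white adipocyte markers measured 1, 1, 1 and 0 were lower and none higher. No mesothelial or skeletal and heart muscle marker passed. The part of these cell types in the changes of Eln, Fbn1, Fbln2, Fbln1 and Efemp1 was not tested.

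Across the 8 group means, each gene centred on its own mean, the 10 genes fell into unlike patterns. The closest pair was Fbn1 and Fbln2, with a root mean square difference of 0.216 on the log2 scale, and, leaving out the dim Fbn2, the farthest was Eln and Fbln1 at 1.72. Among 13221 genes well above background on every array, those nearest to Eln were Ckap4, Ccl5, Tbc1d12, Slc16a3 and Eef1akmt4, at differences of 0.217 to 0.272, where the median gene stood at 0.932. Nearest to Fbn1 were Ttll12, Rab29, Cmc2, Trappc1 and Tmem181a (0.0657 to 0.0794, median 0.534) and nearest to Efemp1 were A930005H10Rik, Tceal1, Mnd1, Hcfc1r1 and Pltp (0.0888 to 0.103, median 0.546). The 8 means share arrays, slides and scaling, and these distances are a description with no test.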

How the data were processed

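RNA from mouse aorta was measured on 24 one-colour Agilent arrays. The deposited spot intensities are processed signals, background-subtracted within each array per the file headers, which name Feature Extraction 10.7.1.1, while the submitters' processing notes name 9.5.1.1. The series' table of intensities had the same sorted values in each column to within rounding, as quantile normalisation by the authors gives, on a linear scale with a column median of 30.982 and no centring, and served as an alternative.

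Control spots and outlier spots were removed, and the remaining spots of each probe averaged. The log2 signal minus the array's 75th percentile was fitted over 8 group means with limma 3.58.1 (R 4.3.3), on probes well above background on all 3 arrays of some group and, in each group, kept on 2 arrays or more, with the brightest probe for each gene and Benjamini-Hochberg adjustment over 23503 genes at 0.05. The fit was tested on simulated data. Alternatives changed the background correction, scaling, filter, probe choice, slide term, replicate block and the arrays included.

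Of the 10 genes all are named. From each related list up to 4 genes with the smallest p among those called in the comparisons with vehicle are named, and for Eln, Fbn1, Fbn2 and Efemp1 the 5 nearest in pattern, of which those of Fbn2 are left out because its means rest on signals near background. The genes, lists and tests were chosen with earlier results of these data known. Groups follow the labels. Replicate numbers did not pair the samples, since 0 of 14 comparisons had every same-number correlation over 0.1 (range −0.449 to 0.453). Titles and source names number the wild-type salt samples differently, and the source names were used.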

Additional observations from a re-analysis of the deposited data

How the results depend on the processing

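Of 57 calls of a gene in a comparison, 48 were kept under quantile normalisation, 54 with normexp background correction, 49 in the authors' values, 52 without the filter on dim probes, 55 with the mean of a gene's probes, 41 in fits of the compared groups only and 32 with slide as a random block. A fixed slide block kept 27 of 39, the arrays of slide 3 kept 10 of 14, those of slide 1 kept 6 of 6, and the filter on all arrays kept 52 of 52. None reversed. The replicate block kept 56 of 57, and it lost Efemp1 for knockout against wild type with salt plus infusion (0.61, adjusted p = 0.0528).

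For wild-type infusion on plain water, the 5 genes called became 0 with slide as a fixed block, 0 as a random block and 2 in the compared groups only. For wild-type salt plus infusion against vehicle, 7 became 4 in the compared groups and 4 on slide 3, and for knockout infusion on plain water 6 became 2 in the compared groups. For knockout against wild type, a random slide block, which cannot separate genotype from slide, left 1 of 6 with vehicle and 1 of 6 with salt. It left 0 of 4 with infusion and 0 of 2 with salt plus infusion. The compared groups alone gave 1 with infusion, and with salt plus infusion normexp gave 4, no filter gave 1 and the replicate block gave 1. The causes were not tested, except that fits of 2 groups hold fewer arrays.

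With 1 array left out, the count lay between 3 and 6 for knockout infusion on plain water, 4 and 7 with salt, and 4 and 6 for knockout salt plus infusion against vehicle. In the wild type it lay between 4 and 7, between 6 and 7, and between 4 and 5 in the same comparisons. For knockout against wild type it lay between 2 and 6 with vehicle, 4 and 6 with salt, 3 and 5 with infusion, and 0 and 2 with salt plus infusion. The count was 2 with vehicle without knockout vehicle array 1 and 3 without wild-type vehicle array 1, and it was 3 for knockout infusion without infusion array 1. It was 4 for both knockout comparisons of salt plus infusion without salt plus infusion array 3, and 4 in the wild type against vehicle without vehicle array 2. It was 0 for all other comparisons. The dim probe limits Fbn2.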
